A study of Homo sapiens with 10 samples.

Results

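The TFAP2 genes (AP-2 transcription factors) and GATA genes were measured in lines of BEAS-2B, an immortalised human bronchial epithelial cell line, that had grown as colonies in soft agar. 6 genes were described, TFAP2A, TFAP2B, TFAP2C, TFAP2E, GATA2 and GATA3, of 18377 genes with a row of their own on the array. Each gene was read from its row (transcript cluster) in the Affymetrix Human Gene 1.0 ST table, taking the row with the highest mean over the 10 arrays where a gene has several, and each of the 6 had 1 such row. The 6 genes were chosen by family after results of these data were known, among them the difference of TFAP2C between chromate and control lines, so that difference is given as a description without a p-value. All 10 arrays hybridised RNA of BEAS-2B cells or of lines derived from them. The 6 chromate lines came from cells exposed to 0.5 µM potassium chromate for 30 days and then plated in soft agar for 3 weeks. Of these, 3 came from small colonies (Cr_small, picked for a colony size like that of the controls) and 3 from large colonies (Cr_large). The 3 control lines came from colonies that formed spontaneously from untreated cells, and 1 array held parental BEAS-2B cells that had not been through soft agar. Each line was grown from 1 colony and expanded as a monolayer without chromate, and 1 array was made per line. The spread within a group is thus the spread between lines of 1 parental culture. No replicate of the exposure was described, so the p-values below treat lines as the replicates. Chromate cannot be told apart from any other difference between the exposed and the untreated cultures.

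AP-2 proteins bind GC-rich DNA as dimers and act in surface ectoderm, neural crest, placental trophoblast and breast epithelium, where they control the switch between proliferation and differentiation. GATA proteins carry zinc fingers that bind the letters GATA; GATA2 is best known for blood stem cells and vessel lining, and GATA3 for T cells and breast luminal cells. TFAP2C, GATA2 and GATA3 also act together in the trophoblast lineage. None of these genes is a standard marker of bronchial epithelium, and all levels below are log2 intensities, which order the arrays for 1 gene but do not rank genes against each other.

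GATA2 and GATA3 are shown with the 250 bases before their first annotated start, because the AP-2 binding letters lie in both and none of the other members with an entry has a match. The letters searched were GCCNNNGGC, which read the same way on both strands, and capitals mark the match. The sequences are from RefSeq on GRCh38.p14, written 5′ to 3′ on the strand of the gene. The GATA2 stretch is chr3:128493202-128493451 on the minus strand with the match 151 bases before the start, and the GATA3 stretch is chr10:8045083-8045332 on the plus strand with the match 223 bases before the start.
GATA2: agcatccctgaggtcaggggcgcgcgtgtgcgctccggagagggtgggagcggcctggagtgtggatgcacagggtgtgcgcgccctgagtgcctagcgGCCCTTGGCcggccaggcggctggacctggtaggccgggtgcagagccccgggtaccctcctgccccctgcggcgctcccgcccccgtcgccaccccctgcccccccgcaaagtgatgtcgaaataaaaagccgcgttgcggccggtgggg
GATA3: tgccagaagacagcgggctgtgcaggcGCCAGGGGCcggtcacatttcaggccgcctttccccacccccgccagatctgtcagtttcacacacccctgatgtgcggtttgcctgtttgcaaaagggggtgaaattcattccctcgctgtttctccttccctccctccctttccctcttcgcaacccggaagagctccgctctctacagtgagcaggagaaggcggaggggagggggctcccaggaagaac
The match is common, since 6948 of 35116 RefSeq promoters (19.8%) held it within the same 250 bases. GATA2 has 2 annotated starts and both had a match, the inner start with matches 93 and 21 bases upstream. GATA3 has 6 annotated starts, of which 3 had a match, at 223, 206 and 218 bases. TFAP2A with 2 starts, TFAP2B with 1 and TFAP2E with 1 held no match, and TFAP2C was not analysed here. A GATA motif (the letters GATA with A or T before them and A or G after them, on either strand), which 22.3% of promoters held, was in none of the 12 member stretches. These matches describe letters in a window and were not measured as binding.

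TFAP2C and GATA2 were higher in all 6 chromate lines than in all 3 control lines, while TFAP2A, TFAP2B, TFAP2E and GATA3 overlapped between the groups. Across all 28869 clusters, 16.7% were separated in this way in 1 direction or the other. The separation of TFAP2C was known when the genes were chosen, so nothing is read from its place in these counts. By limma with Benjamini-Hochberg adjustment over all clusters, GATA2 was the 1 gene of the other 5 that was past an adjusted p of 0.05 for the mean of the chromate groups against control, and it was higher. The background for the same comparison was 11.0% of all clusters and 14.6% of genes with 1 row each. Leaving TFAP2C aside, the log2 differences were -0.06 for TFAP2A, 0.06 for TFAP2B, 0.06 for TFAP2E, 0.68 for GATA2 and 0.35 for GATA3. The median was 0.0131 over all clusters. In bulk RNA, a larger share of cells that express a gene and more RNA of it per cell cannot be told apart.

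**Figure D1:**
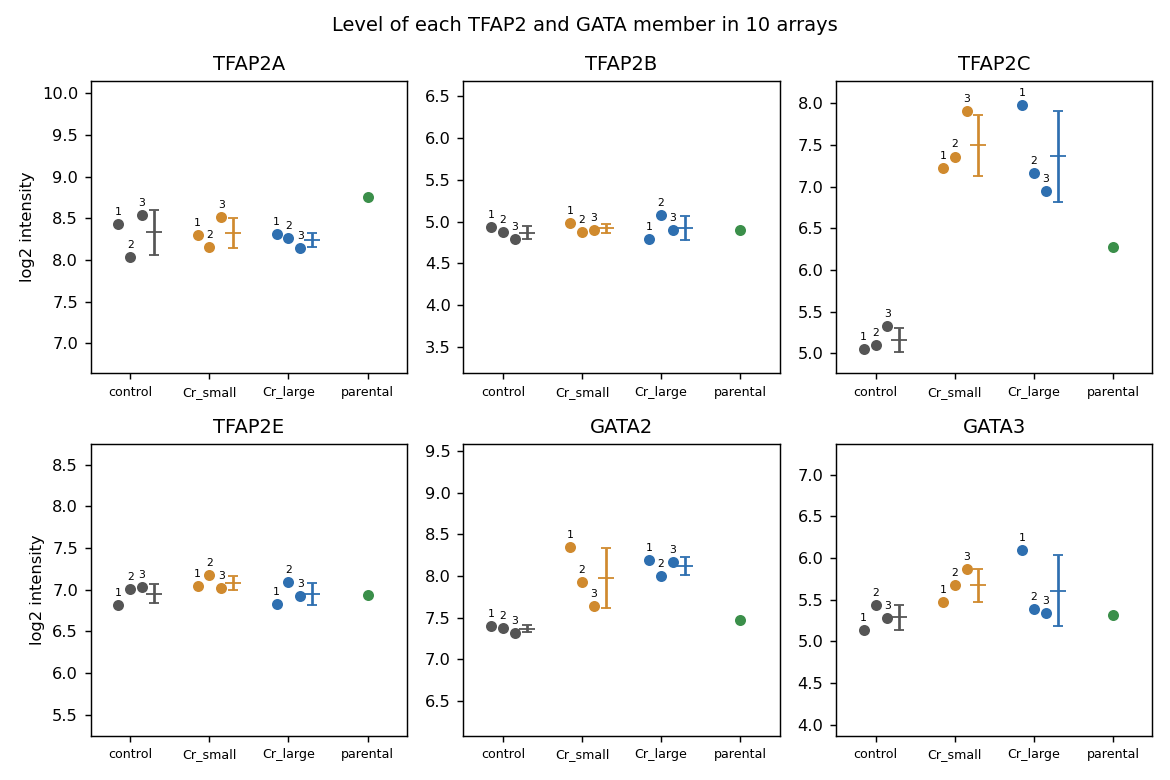
Log2 intensity of each member in each array, by group, with numbered points for lines and a bar for the mean ± SD of the 3 lines (the parental group is 1 array); each panel covers the same number of log2 units. TFAP2C sits between 5.05 and 5.33 in control lines and between 6.95 and 7.98 in chromate lines, GATA2 is also separated, and the other 4 genes overlap.

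TFAP2C, which acts in trophoblast, germ cells and luminal breast epithelium, gave the widest range of the 6 genes, 2.93 log2 units over the 10 arrays. The gene lies at chr20:56629306-56639283 (GRCh38.p14). Its log2 intensity was 5.05, 5.10 and 5.33 in control lines 1 to 3, 7.22, 7.36 and 7.91 in Cr_small lines 1 to 3, and 7.98, 7.16 and 6.95 in Cr_large lines 1 to 3. The parental array read 6.27, above every control line and below every chromate line. The lowest chromate line, Cr_large 3, was 1.63 log2 units above the highest control line, and the control lines were all below the array-wide median of 5.86. Group means were 5.16 ± 0.15 (SD, n = 3) for control, 7.50 ± 0.36 for Cr_small and 7.36 ± 0.54 for Cr_large. The difference of the chromate lines from control was 2.27 on the log2 scale (SE 0.24, 95% interval 1.72 to 2.83). This difference was known when the gene was chosen, so nothing is read from the interval. The chromate lines were 4.84-fold above control, with 5.07-fold in Cr_small and 4.62-fold in Cr_large. RMA16 was taken here to add a constant of 16 to every intensity, and with 16 subtracted the differences were 7.94-fold, 8.40-fold and 7.57-fold. Parental cells were 2.16-fold above the control mean, 1.11 log2 units (1.64 with 16 subtracted), and the chromate lines were 2.24-fold above the parental array. Against the parental cells, then, the control lines were lower and the chromate lines higher.

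TFAP2A, a factor of surface ectoderm and neural crest, lies at chr6:10396677-10419659. It read 8.43, 8.03 and 8.54 in the control lines, 8.30, 8.15 and 8.51 in Cr_small, 8.31, 8.26 and 8.14 in Cr_large and 8.76 in the parental array. Every chromate line lay within the range of the control lines. The difference from control was -0.06 (95% interval -0.34 to 0.22, limma adjusted p = 0.85). The parental array gave the highest TFAP2A level of all 10, 0.43 above the control mean and 0.48 above the chromate mean on the log2 scale. Across the 9 lines it ranged from 8.03 to 8.54.

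TFAP2B, known from kidney, limb and the ductus arteriosus, and TFAP2E, known from the olfactory bulb, did not pass the test. TFAP2B (chr6:50818355-50847619) read 4.94, 4.87 and 4.79 in control lines, 4.98, 4.88 and 4.90 in Cr_small, 4.79, 5.08 and 4.90 in Cr_large, and 4.90 in parental cells. These readings are close to the level under which 25% of all values fell (4.91), so TFAP2B was near the bottom of the range the array can resolve. TFAP2E (chr1:35573314-35595591) read 6.82, 7.01 and 7.03 in control lines, 7.04, 7.18 and 7.02 in Cr_small, 6.83, 7.09 and 6.92 in Cr_large, and 6.94 in parental cells. Groups overlapped for both genes, and both differed by 0.06 between chromate and control lines. The 95% interval was -0.10 to 0.21 for TFAP2B (limma adjusted p = 0.71) and -0.11 to 0.24 for TFAP2E (limma adjusted p = 0.706).

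GATA2, a factor of blood progenitors and endothelium, lies at chr3:128479422-128493201. It read 7.40, 7.38 and 7.32 in the control lines, 8.35, 7.93 and 7.64 in Cr_small and 8.19, 8.0 and 8.17 in Cr_large. The parental array read 7.47, just above the control lines and below all chromate lines. The lowest chromate line, Cr_small 3, was 0.24 log2 units above the highest control line. The control lines lay close together (7.36 ± 0.04, SD, n = 3), Cr_large lay at 8.12 ± 0.11 and Cr_small spread more widely at 7.97 ± 0.36. GATA2 rose by 0.68 log2 units in the chromate lines (SE 0.14, 1.60-fold, 95% interval 0.37 to 0.99, limma adjusted p = 0.0169). In Cr_large it rose 1.69-fold (limma adjusted p = 0.0268). In Cr_small it was 1.52-fold of control, and the adjusted p was 0.0549 by limma. Without Cr_small line 1, 2 and 3 the limma adjusted p was 0.0623, 0.117 and 0.0194. Without 1 of the control lines it was between 0.112 and 0.15. The call for all chromate lines rested on having 3 control lines: the limma adjusted p was 0.0603, 0.0513 and 0.0735 without control line 1, 2 and 3. The Cr_large call was lost without any 1 of the control or Cr_large lines (limma adjusted p between 0.054 and 0.0912), with a log2 difference between 0.72 and 0.82 in those 6 fits.

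GATA3, a factor of T cells, luminal breast cells and trophoblast, lies at chr10:8045333-8075198. It read 5.14, 5.44 and 5.28 in the control lines, 5.47, 5.68 and 5.87 in Cr_small, 6.10, 5.39 and 5.34 in Cr_large and 5.32 in parental cells. In 4 of the 6 chromate lines it was above the highest control line, and Cr_large 2 and 3 lay within the control range. The difference was 0.35 log2 units (SE 0.18, 95% interval -0.05 to 0.76, limma adjusted p = 0.273), so the chromate and control lines were not told apart at this number of lines. The log2 difference was 0.23 without Cr_large 1 and 0.55 with 16 subtracted (limma adjusted p = 0.223 and 0.186). For Cr_large alone it was 0.32, and 0.08 without Cr_large 1 (limma adjusted p = 0.443 and 0.81). All but 2 of the 10 readings were under the array-wide median of 5.86.

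**Figure D2:**
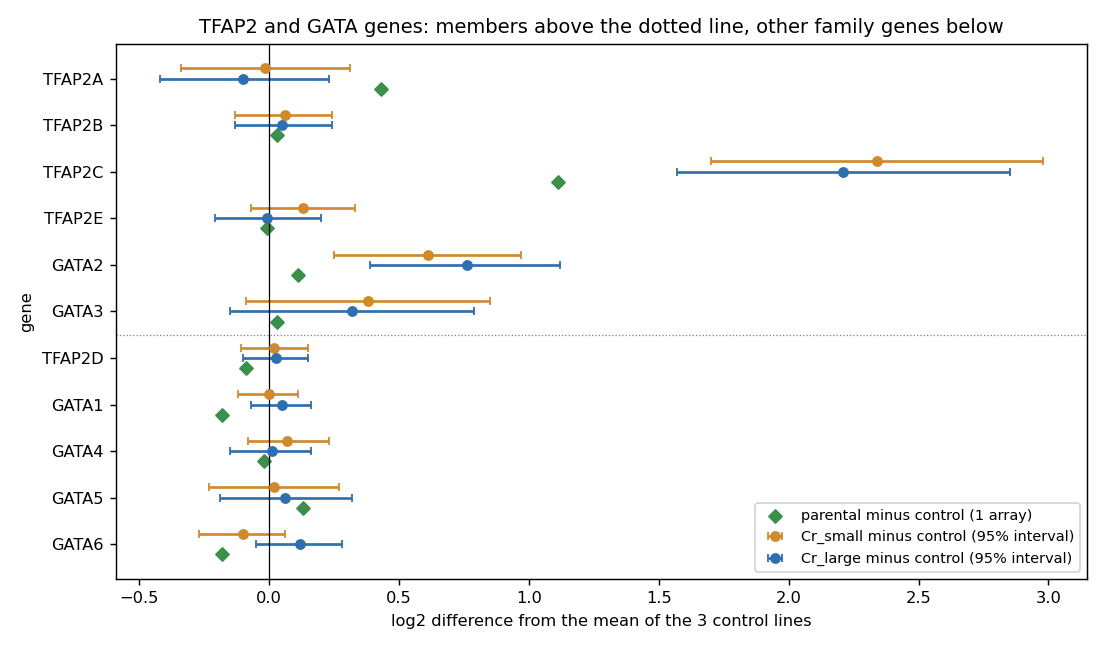
Log2 difference from the mean of the 3 control lines for each TFAP2 and GATA gene, with circles and 95% intervals for Cr_small and Cr_large (3 lines each) and diamonds for the 1 parental array. The difference of TFAP2C was known beforehand, so nothing is read from its intervals. Among the other genes plotted, only the GATA2 intervals exclude 0 in both colony classes. The intervals are not adjusted for the number of genes. The parental diamond for TFAP2C lies at 1.11.

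No member was called different between large and small colonies. Leaving TFAP2C aside, since its difference from control was known beforehand, 0 of the other 5 genes were past an adjusted p of 0.05 by limma for Cr_small against control (8.26% of all clusters were), and 1, GATA2, was past an unadjusted p of 0.05. For Cr_large against control 1 of the 5 was past the adjusted threshold, GATA2 (7.44% of all clusters were). For Cr_large against Cr_small none of the 6 was, nor was any cluster (0% of 28869), and at an unadjusted p under 0.05 limma gave 1266 clusters and 0 of the 6 genes. The log2 difference between Cr_large and Cr_small was -0.13 for TFAP2C (95% interval -0.77 to 0.50) and 0.15 for GATA2 (-0.21 to 0.51). It was -0.06 for GATA3 (-0.53 to 0.41), -0.08 for TFAP2A (-0.40 to 0.24) and -0.14 for TFAP2E (-0.34 to 0.07). These intervals still allow a difference of more than 0.3 log2 units in each of the 5 genes, while TFAP2B lay between -0.18 and 0.18.

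Parental cells differed from the control lines most in TFAP2C. The parental array was outside the range of the 3 control lines for 3 of the 6 genes, TFAP2A, TFAP2C and GATA2, all higher, where 57.9% of all clusters were outside that range. The log2 difference of parental from control was 0.11 for GATA2 and -0.01 for TFAP2E. It was 0.03 for GATA3 and 0.03 for TFAP2B, and both turned to the other sign with arrays centred on their median (-0.03 and -0.02). All 6 chromate lines were above the parental array for TFAP2C, GATA2 and GATA3, with mean differences of 1.16, 0.57 and 0.33 log2 units, and all 6 were below it for TFAP2A. With 1 parental array these are values without a test.

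Within the 6 chromate lines, the level of GATA3 followed that of TFAP2C, and the level of GATA2 did not. Both TFAP2C and GATA3 had their highest readings in Cr_large 1 and Cr_small 3 and their lowest in Cr_large 3 and Cr_large 2, and the 6 lines had the same order for both genes. Pearson's r was 0.965 (exact permutation p = 0.00139, adjusted 0.0209 over the 15 pairs of members) and Spearman's rho was 1.00 (exact permutation p = 0.00278, the smallest that 720 pairings allow for it, adjusted 0.0417). Without Cr_small 3 and Cr_large 1, the lines farthest from the median of TFAP2C, r was 0.898 over 4 lines. For all other pairs the adjusted exact permutation p of r was 0.486 or above, with r = -0.408 for TFAP2C and GATA2. Of 18376 other genes, 25 (0.136%) had an r with TFAP2C at least as high as GATA3 over these lines. Among the 1450 genes whose level spanned at least as much as GATA3 there (0.75 log2 units), 4 did (0.276%). The control lines did not show the same order, since control 3 had the highest TFAP2C and control 2 the highest GATA3. The lines of both colony classes were pooled here because a class holds 3 lines, too few for a value of its own.

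**Figure D3:**
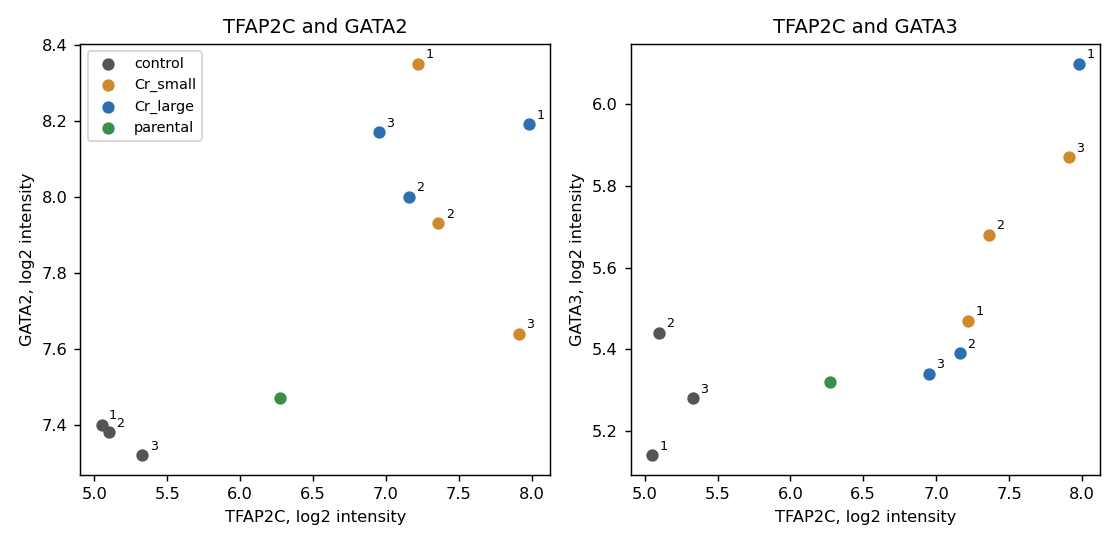
Log2 intensity of GATA2 (left) and GATA3 (right) against TFAP2C, 1 point per array, coloured by group and numbered by line. GATA3 climbs with TFAP2C over the 6 chromate lines (r = 0.965), whereas GATA2 is separated from control but has no such order (r = -0.408).

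None of the remaining genes of both families passed the test. TFAP2D, GATA1, GATA4, GATA5 and GATA6 differed between chromate and control lines by 0.02, 0.02, 0.04, 0.04 and 0.01 log2 units, and 0 of the 5 were past an adjusted p of 0.05 (limma adjusted p between 0.754 and 0.97). GATA1 and GATA4 are blood and heart factors, and GATA5 and GATA6 act in endoderm. GATA6, which is used in lung endoderm, read between 7.04 and 7.44 in all arrays. GATA6 read 7.33 ± 0.09 (SD, n = 3) in Cr_large and 7.11 ± 0.04 in Cr_small, a difference of 0.22 with a 95% interval of 0.06 to 0.38, but the limma adjusted p was 1.00.

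Among the proteins that work with AP-2, 8 of 9 genes were measured, of which 1 rose and 1 fell. KCTD15, which binds and represses AP-2 in neural crest, read 5.92 to 6.12 in control lines, 6.42 to 7.40 in chromate lines and 6.45 in parental cells, and rose 1.84-fold (limma adjusted p = 0.0195). KDM5B, a histone demethylase, fell by 0.59 on the log2 scale (limma adjusted p = 0.0429), with Cr_large 3 at 9.08 above control 2 at 9.04. CITED2, a coactivator of AP-2, was 0.50 log2 units higher (limma adjusted p = 0.0712), and its parental level of 9.28 was above every line. WWOX, which holds AP-2 in the cytoplasm, was 0.22 higher (limma adjusted p = 0.0648). The median log2 difference over the list was 0.0227, against 0.0255 over all genes, of which 7.0% rose and 7.57% fell.

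Of 13 GATA partners and GATA-type zinc finger proteins, 1 rose and 1 fell, near the 14.6% of all genes that passed. MED1, the Mediator subunit that GATA factors contact, rose 1.52-fold (limma adjusted p = 0.014), from 9.32 to 9.63 in control lines to 9.94 to 10.39 in chromate lines. EP300, the histone acetyltransferase, fell 1.54-fold (limma adjusted p = 0.0131). ZFPM2 (FOG2), the GATA cofactor, was 0.81 log2 units higher with limma adjusted p = 0.0769, and read 6.69 in parental cells, above 5 of the 6 chromate lines. TRPS1, a GATA-type repressor, was 0.56 lower on the log2 scale (log2 difference -0.56, limma adjusted p = 0.123). The list's median log2 difference was -0.0225.

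Of 15 measured genes known elsewhere as AP-2 targets, 13 did not pass the test, KIT, the stem cell factor receptor, rose and MMP2, the gelatinase, fell. Over all genes 14.6% passed, so 2 of 15 is near the background. KIT read 6.63, 6.68 and 6.09 in the control lines and 8.06, 8.75, 8.05, 7.41, 7.70 and 8.44 in the chromate lines, with 7.63 in parental cells. It rose 3.04-fold (SE 0.26 log2 units, limma adjusted p = 0.00789), and no chromate line overlapped a control line. MMP2 read 7.38, 6.94 and 7.38 in the control lines, 5.46 to 5.85 in the chromate lines and 7.26 in parental cells, and fell 2.93-fold (limma adjusted p = 0.000445). VEGFA, the vessel growth factor, differed by -0.50 log2 units (limma adjusted p = 0.125) and ERBB3, a receptor of the EGF family, by 0.17 (limma adjusted p = 0.0828). The list's median log2 difference was -0.00659. Of 18 genes known as GATA2 or GATA3 targets, 0 were past an adjusted p of 0.05, and 12 of them were below the array-wide median on every array. The largest differences there were -0.70 for EDN1, which encodes endothelin-1 (limma adjusted p = 0.102), 0.33 for HHEX (0.124), -0.23 for FOXA1 (0.0814) and 0.19 for XBP1 (0.344).

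**Figure D4:**
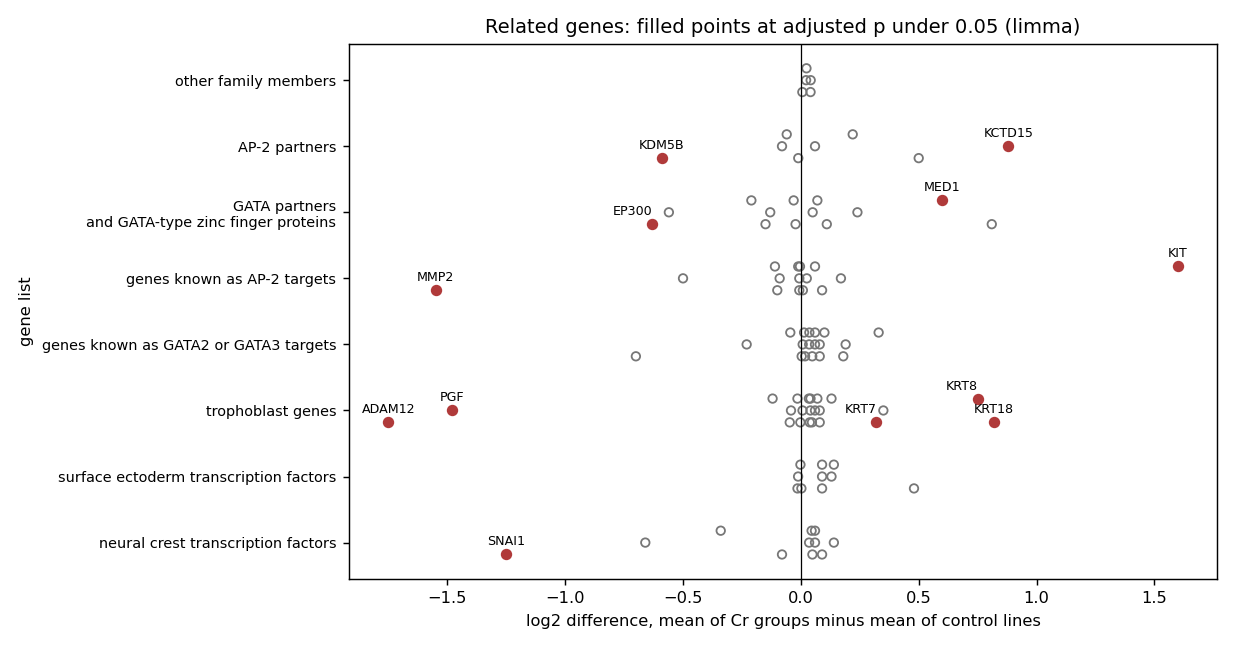
Log2 difference between the mean of the chromate groups and the mean of the control lines for each gene of the 8 related lists, 1 circle per gene, filled and named where the limma adjusted p was under 0.05. Named genes lie on both sides of 0 in 4 of the lists, and the other family members, the GATA2 or GATA3 targets and the surface ectoderm factors have none.

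Trophoblast genes were listed because TFAP2C, GATA2 and GATA3 work in that lineage. Of 22 measured, 3 rose and 2 fell, where 7.0% of all genes rose and 7.57% fell, and the median log2 difference was 0.0408. The list did not hold the PSG genes, which trophoblast also makes and which are not described here. The 3 list genes that rose were keratins that simple epithelia also make: KRT8 1.68-fold (limma adjusted p = 0.00505), KRT18 1.77-fold (limma adjusted p = 0.00188) and KRT7 1.25-fold (limma adjusted p = 0.0433). Those that fell were the placental growth factor PGF, 2.79-fold (limma adjusted p = 0.000303), and the metalloprotease ADAM12, 3.36-fold (limma adjusted p = 0.000445). PGF read 6.28 in parental cells, like the chromate lines at 6.16 to 6.31, with the control lines at 7.45 to 8.04. The defining trophoblast markers CGA, GCM1, ERVW-1, HSD3B1 and ELF5 lay between 4.70 and 5.47 on every array, all below the array-wide median.

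AP-2 factors also act in surface ectoderm and neural crest. Of 10 surface ectoderm transcription factors measured, 0 passed the test, with KLF4 0.48 log2 units higher (limma adjusted p = 0.0612), and the list's median was 0.09. Of 11 neural crest transcription factors, SNAI1 fell 2.37-fold (limma adjusted p = 8.65e-05) and the other 10 were not past the threshold. SNAI1, a repressor of epithelial genes, read 6.69 to 6.96 in control lines, 5.38 to 5.73 in chromate lines and 5.48 in parental cells. SNAI2 ranged from 7.80 to 9.88 across the chromate lines (log2 difference -0.66, limma adjusted p = 0.419).

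Of 6 epithelial markers, KRT7, KRT8 and KRT18 rose and KRT19, EPCAM and CDH1 did not pass the test, where 7.0% of all genes rose. The mean log2 level of the 6 was 8.30 to 8.45 in control lines, 8.56 to 9.53 in chromate lines and 8.71 in parental cells. KRT19 had the widest range of the 6 in the chromate lines: 5.79, 6.43, 9.23, 10.07, 8.83 and 7.26 (Cr_small 1 to 3, then Cr_large 1 to 3), against 6.07 to 6.27 in control lines (limma adjusted p = 0.235). CDH1 (4.81 to 5.02, limma adjusted p = 0.974) and EPCAM (4.83 to 5.71, limma adjusted p = 0.424) were low on every array. The part of these markers in the TFAP2C and GATA2 differences was not tested. Airway markers were low too: KRT5, SCGB1A1, FOXJ1, NKX2-1 and FOXA2 lay between 5.01 and 6.38, and 0 of the 5 passed the test. Of 5 mesenchymal markers 0 passed the test. VIM, FN1, CDH2 and COL1A1 were above the array-wide median on every array, and COL3A1 was below it, at 5.44 to 5.68. The 5 endothelial markers, which are also in the list of GATA2 or GATA3 targets, were between 4.74 and 5.41 on every array. Of 4 blood markers 0 passed the test, and PTPRC, the pan-leukocyte marker, was between 4.52 and 4.66.

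The genes whose levels were most like TFAP2C over the 10 arrays were STXBP6 (Pearson r = 0.978), TRIM24 (0.975), HOXC8 (0.974), LYPD6B (0.970) and EPHA4 (0.969), out of 2183 genes that spanned at least 1 log2 unit. In each of these the parental array also lay between the control and chromate lines, as for STXBP6 at 6.78, with 5.43 to 5.54 in control lines and 7.06 to 7.89 in chromate lines. The parental array was among the 10 used to pick them, so that place is no separate observation. The genes most like GATA2 were PSAT1 (0.972), KCTD15 (0.964), SMCO4 (0.952), ZNF711 (0.950) and DENND2D (0.943). KCTD15 is the AP-2 repressor described above, and like GATA2 it was highest in Cr_small 1 and lowest among chromate lines in Cr_small 3. These r values are descriptions over 10 arrays that share the split between control and chromate lines. The other 4 members spanned less than 1 log2 unit and were given no such list.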

How the data were processed

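RNA of 10 BEAS-2B lines or cultures was hybridised to Affymetrix Human Gene 1.0 ST arrays, 1 array each. The authors made the deposited intensity values in GeneSpring with the RMA16 algorithm and quantile normalization. The values are linear (19.98 to 16979.5); the baseline transformation to the control median that the methods name is not in them. Array medians were 5.82 to 5.90 after log2 and arrays correlated at r = 0.978 to 0.9972. No scan date or batch was given in the sources used here. The number of arrays limits the precision.

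Here log2 was taken and the 4 group means were estimated for all 28869 clusters by limma 3.58.1 (R 4.3.3; 6 residual and 1.96 prior degrees of freedom), with Benjamini-Hochberg adjustment. Chromate against control was the mean of the Cr_small and Cr_large means minus control. The array annotation gave 1 symbol to 19310 clusters, several to 1752 and none to 7807; a gene was its cluster with the highest mean. Coordinates and promoters are from RefSeq, GRCh38.p14. Genes named were the 6 members, up to 4 genes per list by absolute difference, other family members and the 5 most like genes; KRT7, the markers and the neighbouring genes were named after their values were seen. The members and lists were chosen with earlier results of these data known. The fit was tested on simulated data. Python 3.11.15 with scipy 1.17.1 gave the exact two-sided permutation tests. Samples were grouped by GEO titles; the treatment text is the same for all arrays. Same-numbered lines did not deviate together (9 pairs, r between -0.145 and 0.0984), so lines were not treated as paired. Alternatives varied the scaling, the constant, the filter, the test and the lines.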

Additional observations from a re-analysis of the deposited data

How the results depend on the processing

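Over 20 alternatives the log2 difference of the chromate lines from control was 2.12 to 2.99 for TFAP2C and 0.59 to 0.77 for GATA2. All chromate lines were above all control lines for both genes, so leaving out a line could not change the direction. TFAP2C, whose difference was known beforehand, is left out of the calls that follow, except where a count names it. For chromate against control GATA2 was past the threshold (11.0% of all clusters were in the main fit), except without any 1 of the control lines. For Cr_small GATA2 was not past it in the main fit (8.26% of all clusters were). GATA2 was past it with the methods' t-test without adjustment, trend and robust moderation, 16 subtracted, or quantiles normalized again. It was also past it with the dimmest 25% of clusters left out, or only clusters with 1 symbol. So it was with the mean of a gene's clusters and without Cr_small 3. With TFAP2C counted in, the Cr_large count was 2 in the main fit and 0 when the methods' t-test was adjusted by Benjamini-Hochberg. This count was between 1 and 2 with lines left out. Without TFAP2C, the Cr_large call was GATA2 alone in the main fit, where 7.44% of all clusters were past the threshold. GATA2 was not past it with the adjusted t-test, or without any 1 of the control or Cr_large lines. TFAP2B was removed by the filter on dim clusters. With line number as a replicate block GATA2 stayed past the threshold for chromate against control, at 0.681 (limma adjusted p = 0.0239). The block changed no other call. Small differences changed sign. With quantiles normalized again, TFAP2A was 0.0237 in Cr_small and TFAP2E 0.0216 in Cr_large. With a line left out, TFAP2A ranged from -0.207 to 0.0459 for all chromate lines, -0.167 to 0.086 for Cr_small, -0.247 to 0.00578 for Cr_large and -0.165 to 0.0151 for Cr_large against Cr_small. TFAP2B ranged from -0.0254 to 0.122 for Cr_large and -0.0806 to 0.0671 for Cr_large against Cr_small, TFAP2E from -0.00641 to 0.102 for all chromate lines and -0.0782 to 0.0527 for Cr_large. For Cr_large against Cr_small, TFAP2C ranged from -0.442 to 0.0732, GATA2 from -0.0182 to 0.336 and GATA3 from -0.304 to 0.0719. With arrays centred on their median, the parental difference was 0.0527 for GATA2, -0.0241 for TFAP2B and -0.0269 for GATA3. GATA3 ranged from 0.232 to 0.43 for all chromate lines and from 0.0795 to 0.456 for Cr_large with a line left out. The r of TFAP2C and GATA3 over the chromate lines was 0.955 to 0.983 in the 9 alternatives run, which were chosen after seeing the data. The cause of these shifts was not tested. With 3 lines a group, the 95% intervals included 0 for GATA3 against control and for each member between Cr_large and Cr_small. Differences within those intervals could not be told apart from no difference.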

Other observations

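Neighbours were the 20 protein-coding genes with a row nearest to a member on its chromosome (10 on each side). Over all genes, 7.0% rose and 7.57% fell, with a median log2 difference of 0.0255. Of the 20 neighbours of TFAP2C, 4 rose, AURKA by 0.32, CSTF1 by 0.31, RTF2 by 0.21 and RAE1 by 0.22 log2 units. PMEPA1, a TGF-beta response gene, was the 1 that fell, with a log2 difference of -2.55. The genes next to TFAP2C, FAM209B and BMP7, differed by 0.01 and 0.03, and the median of the 20 was 0.0359. Of the 20 neighbours of GATA2, 0 were past the threshold by limma, with differences between -0.29 and 0.50 and a median of 0.16. Of the 20 neighbours of GATA3, 1 was, CAMK1D, which fell by 1.25 on the log2 scale.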
